A study of Mus musculus with 16 samples.

Results

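The costimulators described here are 7 genes of the tumour necrosis factor (TNF) superfamily, taken by symbol from the 32285 genes listed in each of 8 single-cell RNA matrices of mouse melanomas. They are 3 ligands, Tnfsf9 (4-1BB ligand), Tnfsf4 (OX40 ligand) and Cd70, and 4 receptors, Tnfrsf9 (4-1BB), Tnfrsf4 (OX40), Tnfrsf18 (GITR) and Cd27. The ligands were read in antigen-presenting cells and the receptors in T and NK cells. Each was present in all 8 matrices.

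The tumours were grown under the skin of C57BL/6J mice from 1000000 cells of Bro4.1 B16, a melanoma line, which were either control cells or cells lacking B2m, the invariant chain of MHC class I molecules. The animals received 100 mcg of an antibody to CD40, or of rat IgG2a as isotype control, into the peritoneum on days 6, 9 and 12. Tumours were taken on day 14, CD45-positive cells were enriched on beads, and the cells of each mouse carried their own hashtag antibody before mice of a group were pooled on a lane. The 4 groups are control tumours with isotype (5 mice), control tumours with anti-CD40 (2 mice), B2m-null tumours with isotype (5 mice) and B2m-null tumours with anti-CD40 (4 mice). The sample labels give the B2m genotype to the mouse, whereas the series' design text gives it to the implanted cells. In melanoma-like cells carried over on the beads, B2m stood at 1083 to 2130 CPM in the 4 control lanes and at 188 to 442 CPM in the 4 B2m-null lanes, CPM being the UMIs (counted RNA molecules) of a gene in every 1000000 of that class. The control anti-CD40 group is 1 pool run on 2 technical lanes, which were summed per mouse, so its 2 mice share all handling.

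The 8 lanes held 116552 barcodes and 541.1 M UMIs (unique molecular identifiers), with 46.0 to 99.3 M per lane and a median of 1715 to 4225 per barcode. Any pair of lanes shared 41 to 92 barcode sequences, 70 between the technical lanes. After 9676 hashtag doublets (8.30%) were removed, 74687 of 91461 kept cells were tied to a mouse, 801 to 18166 per mouse. Barcodes with no hashtag call were 3.1 to 16% of 6 lanes and 54.5% and 43.6% of the pool 1 lanes of B2m-null isotype and B2m-null anti-CD40. Values per mouse and all tests with the mouse as unit use cells tied to a mouse. Values per lane, tests with the lane as unit and the pooled ligand counts of B-like and dendritic cells also hold the others. Cell classes were rebuilt from marker genes and are named as likenesses: CD8 T-like, regulatory T-like (Treg-like), mature dendritic cell-like and so on. Levels are CPM, taken over the UMIs of a class in a mouse. In this 3′ assay a CPM does not depend on gene length.

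As background, receptors of this family have no enzyme activity of their own. A ligand made of several chains brings receptors together, and TRAF adaptor proteins bind their tails. NF-kB is then switched on through the canonical and the NIK-dependent route, which favours survival, division and cytokine output. 4-1BB, OX40 and GITR rise on T cells after antigen receptor stimulation, regulatory T cells carry OX40 and GITR without it, and CD27 is already present on resting T cells. Their ligands appear mainly on activated dendritic cells, macrophages and B cells. CD40, the target of the antibody, is a receptor of the same superfamily on those antigen-presenting cells, and its engagement is known to raise costimulatory ligands there.

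On the GRCm38 assembly, 3 of the receptor genes lie on chromosome 4 and a ligand pair lies on chromosome 17. Tnfrsf9 spans chr4:150914562-150946102, Tnfrsf4 chr4:156013843-156016612 and Tnfrsf18 chr4:156026164-156028895, all on the plus strand. Tnfrsf4 and Tnfrsf18 are 9551 bases apart with 0 protein-coding genes between them. Cd27 spans chr6:125232622-125237010 on the minus strand. Tnfsf9 (chr17:57105325-57107757, plus) and Cd70 (chr17:57145997-57149777, minus) are 38239 bases apart, again with 0 protein-coding genes between them, and Tnfsf4 spans chr1:161395409-161418410 on the plus strand. Tnfsf9, Tnfrsf9, Tnfrsf18 and Cd27 overlap annotated genes of the opposite strand (Gm11110, Camta1, Gm16008 and Vamp1). How the counting treated strand is not known here, so reads from such partners may not be told apart.

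The promoters of the 4 receptors are shown because 3 of them fell with anti-CD40 in CD8 T-like cells of control tumours, where Cd27 was not called. Each line is the 250 bases before a RefSeq start (GRCm38.p6), read 5′ to 3′ on the gene's own strand, with 2 starts for Tnfrsf9. Capitals mark matches on either strand to a broad form of the NF-kB motif, GGG and CC with any 5 bases between them.
Tnfrsf9 at chr4:150927749-150927998 (plus strand): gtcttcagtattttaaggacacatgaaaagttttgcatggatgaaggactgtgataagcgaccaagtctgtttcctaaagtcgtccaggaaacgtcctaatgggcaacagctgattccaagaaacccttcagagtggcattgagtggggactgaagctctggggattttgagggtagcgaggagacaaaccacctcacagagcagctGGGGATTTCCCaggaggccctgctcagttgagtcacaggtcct
Tnfrsf9 at chr4:150919905-150920154 (plus strand): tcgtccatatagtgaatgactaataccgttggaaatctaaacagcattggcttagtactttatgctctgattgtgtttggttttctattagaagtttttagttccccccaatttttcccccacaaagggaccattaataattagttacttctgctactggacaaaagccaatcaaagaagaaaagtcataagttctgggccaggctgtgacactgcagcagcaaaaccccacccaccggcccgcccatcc
Tnfrsf4 at chr4:156013445-156013694 (plus strand): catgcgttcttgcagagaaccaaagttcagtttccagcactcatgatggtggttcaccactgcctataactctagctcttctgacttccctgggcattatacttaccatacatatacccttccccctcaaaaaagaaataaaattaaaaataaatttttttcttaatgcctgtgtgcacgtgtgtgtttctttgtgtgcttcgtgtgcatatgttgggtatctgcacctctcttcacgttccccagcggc
Tnfrsf18 at chr4:156026072-156026321 (plus strand): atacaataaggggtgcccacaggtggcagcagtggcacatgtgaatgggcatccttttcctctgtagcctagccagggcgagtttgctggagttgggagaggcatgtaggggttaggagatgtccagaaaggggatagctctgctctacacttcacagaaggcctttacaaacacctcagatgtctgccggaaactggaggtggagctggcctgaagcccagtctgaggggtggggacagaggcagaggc
Cd27 at chr6:125237028-125237277 (minus strand): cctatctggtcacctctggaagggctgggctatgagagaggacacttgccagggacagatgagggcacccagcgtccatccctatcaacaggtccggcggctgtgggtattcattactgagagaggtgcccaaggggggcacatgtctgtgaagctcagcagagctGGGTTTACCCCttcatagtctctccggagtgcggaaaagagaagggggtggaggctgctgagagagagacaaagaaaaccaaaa
The downstream Tnfrsf9 start and the Cd27 start each held 2 matches that overlap each other, whereas the upstream Tnfrsf9 start, Tnfrsf4 and Tnfrsf18 held 0. The letters occur in 45.8% of the 32851 promoter windows of this length. The downstream Tnfrsf9 window also held 1 match to TGANTCA, the AP-1 motif, which 6.75% of the windows hold. These matches are descriptions of letters and were not tested for binding. Tnfsf9, Tnfsf4 and Cd70 are named only.

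Averaged over mice of all groups, the 4 receptors were highest in Treg-like cells and the 3 ligands in mature dendritic cell-like cells, where each ligand overlapped its next highest class over mice. Mice of the groups enter the classes in unequal numbers, so these means also carry the differences between groups given further on. The order of levels given here is over the named immune classes. It leaves out the unnamed cluster and 5414 cells of T clusters that no marker gate placed, which averaged 209 CPM of Tnfrsf4, 263 CPM of Tnfrsf18, 183 CPM of Tnfrsf9, 103 CPM of Cd27 and 9.35 CPM of Cd70. Over the 13 mice with at least 20 Treg-like cells, Tnfrsf4 averaged 951 CPM, Tnfrsf9 703 CPM, Tnfrsf18 702 CPM and Cd27 154 CPM. For Tnfrsf4 the next class was CD4 T-like at 323 CPM over 9 mice, then mature dendritic-like at 155 CPM over 12 mice and CD8 T-like at 110 CPM over 14 mice. The lowest Treg-like mouse had 597 CPM of Tnfrsf4 and the highest CD4 T-like mouse 626 CPM, so these neighbouring classes overlap. NK-like cells averaged 13.4 CPM of this OX40 RNA and monocyte-like cells 1.24 CPM.

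Tnfrsf18 followed in CD4 T-like (365 CPM), gamma-delta T-like (204 CPM), NK-like (157 CPM) and CD8 T-like cells (157 CPM). Its Treg-like mice began at 487 CPM and the CD4 T-like mice reached 510 CPM, and NK-like and CD8 T-like cells did not differ beyond their spread. Tnfrsf9 averaged 268 CPM in NK-like cells, 238 CPM in CD8 T-like cells and 164 CPM in CD4 T-like cells. The order of the first pair depended on the group. In control isotype mice CD8 T-like cells stood at 343 to 489 CPM and NK-like cells at 182 to 251 CPM, and in B2m-null anti-CD40 mice CD8 T-like cells stood at 61.7 to 103 CPM and NK-like cells at 364 to 439 CPM. Cd27 spread more evenly, at 126 CPM in gamma-delta T-like and 101 CPM in CD8 T-like cells. Mature dendritic-like cells also held Tnfrsf9 (128 CPM) and Tnfrsf18 (108 CPM) RNA.

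Tnfsf9 averaged 66.1 CPM in mature dendritic-like cells, 57.1 CPM in cDC2-like cells and 46.6 CPM in monocyte-like cells, and these neighbours overlap over mice. Tnfsf4 averaged 22.3 CPM in mature dendritic-like cells and, although it is known as a ligand of antigen-presenting cells, 21.1 CPM in CD8 T-like and 14.3 CPM in NK-like cells. Within control isotype mice Tnfsf4 stood at 13.2 to 31.7 CPM in mature dendritic-like cells and at 20.5 to 52.7 CPM in CD8 T-like cells, which overlap. Cd70 averaged 31.0 CPM in mature dendritic-like, 27.6 CPM in CD4 T-like and 11.05 CPM in CD8 T-like cells, and at most 3.08 CPM in the other named immune classes. B-like cells averaged 11 CPM of Tnfsf9, 0.987 CPM of Tnfsf4 and 0.209 CPM of Cd70. Tnfsf4 was at 0 in the 176 B-like cells of the control isotype group, where 3 counts would be 6.73 CPM.

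**Figure D1:**
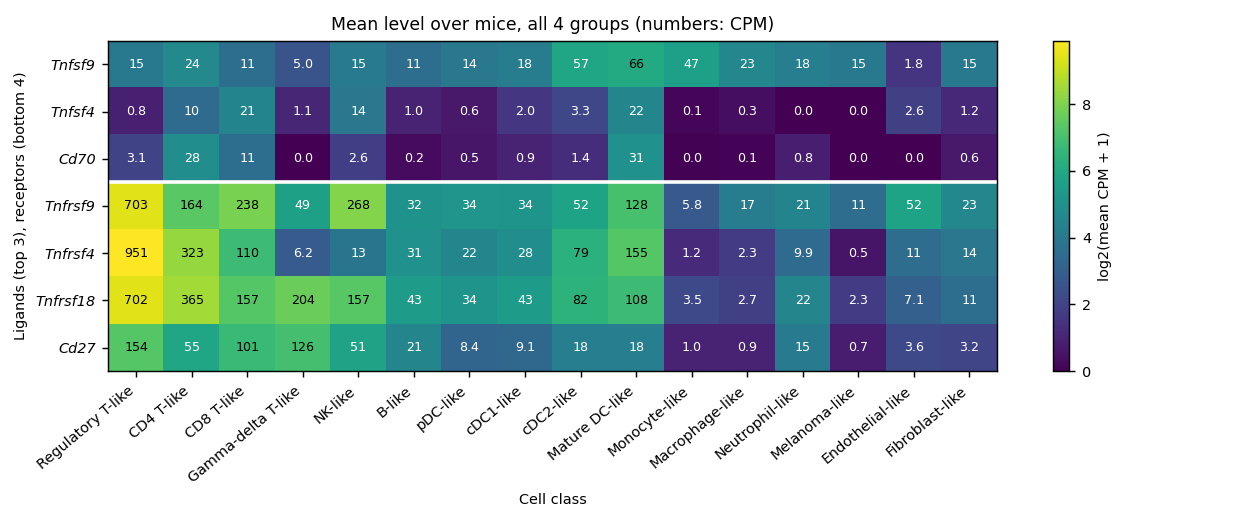
Mean level of the 7 genes in each cell class over mice with at least 20 cells of the class, in CPM. Over all groups the receptors are highest in Treg-like cells (Tnfrsf4 951 CPM) and Tnfsf9 in mature dendritic cell-like cells (66.1 CPM), while Tnfsf4 and Cd70 are close between that class and a T cell class.

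At the level of single cells, 71.5% of Treg-like cells had at least 1 UMI of Tnfrsf4, 71.6% of Tnfrsf18 and 60.0% of Tnfrsf9, as means over mice. Among cells with at least 1500 UMIs, each thinned to 1500 and the rest dropped, these shares were 64.7%, 61.5% and 52.8%. In monocyte-like cells, a class low in these receptors (1.24, 3.49 and 5.84 CPM), the thinned shares were 0.0673% for Tnfrsf4, 0.558% for Tnfrsf18 and 0.585% for Tnfrsf9. They serve as a comparison and are not a measured background. The receptors were often seen in the same cell. Pooled over the cells of all mice, 88.2% of thinned Treg-like cells held at least 1 of the 3 and 28.4% held all 3. Among thinned CD8 T-like cells, pooled in the same way, the shares were 29.1% and 1.15%.

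To see which genes share these patterns, the log level of each of 10370 genes was correlated with each member over 13 cell classes, as a description. The 3 genes most like Tnfrsf18 were Cyld (0.98), Icos (0.98) and Arl2bp (0.96), by Pearson's r. For Tnfrsf4 they were Sdcbp2 (0.95), F730043M19Rik (0.92) and Ctla4 (0.91), for Tnfrsf9 Dock9 (0.96), Krba1 (0.96) and Ttn (0.95), and for Cd27 Pglyrp2 (0.98), Lck (0.97) and Tnik (0.97). For the ligand Tnfsf9 they were Arpc4 (0.95), Bcl2a1d (0.91) and St6galnac6 (0.89), for Tnfsf4 Pxmp2 (0.93), Gm47662 (0.90) and Lad1 (0.90), and for Cd70 Stx6 (0.91), Mllt1 (0.89) and Lad1 (0.87). Among members the closest pairs were Tnfrsf18 with Cd27 (0.93) and Tnfrsf9 with Tnfrsf18 (0.87), and the closest ligand pair was Tnfsf4 with Cd70 (0.80). The classes share libraries, so these values carry no test.

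Anti-CD40 was then compared with isotype within each tumour genotype, for each receptor in T and NK classes and each ligand in antigen-presenting classes. In control tumours 3 of 20 such tests passed an adjusted p of 0.05 in edgeR's quasi-likelihood test, all 3 lower, beside 16.1% of all gene tests in the same cell sets. In B2m-null tumours 5 of 16 passed, 4 higher and 1 lower, beside 16.8% of all gene tests. DESeq2 called 3 and 6. Such shares of all gene tests, here and between genotypes, pool the sets, so sets with many tested genes weigh more than in the member tests. In B2m-null tumours 4622 of the 7163 called gene tests were of monocyte and macrophage-like cells, where Tnfsf9 alone was tested among the ligands. In control tumours the 3 calls were receptors of CD8 T-like cells, and in B2m-null tumours they were 3 receptors of Treg-like cells, Tnfrsf9 of NK-like cells and Tnfsf4 of dendritic cells. The p-values measure the spread between mice, several of which shared a pool and a lane.

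In CD8 T-like cells of control tumours, Tnfrsf9, Tnfrsf4 and Tnfrsf18 fell with anti-CD40 while Cd27 did not pass the test. Tnfrsf9 stood at 343, 410, 489, 469 and 372 CPM in the control isotype mice and at 186 and 94.97 CPM in the control anti-CD40 mice. The groups did not overlap, and the log2 change was -1.58 ± 0.28 (SE; adjusted p = 0.000479, edgeR). In B2m-null tumours the isotype mice stood at 321, 175 and 107 CPM and the anti-CD40 mice at 103, 97.4, 61.7 and 99.6 CPM. These groups did not overlap either, but the highest anti-CD40 mouse was close to the lowest isotype mouse. The change of -0.92 ± 0.29 did not pass (adjusted p = 0.0739, edgeR). DESeq2 called it (-0.94, adjusted p = 0.0245). So did edgeR with no filter on low counts (-0.86, 0.000420) and with the replicate block (-0.95, 0.0149).

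Tnfrsf4 stood at 134, 180, 207, 243 and 141 CPM in the control isotype mice and at 54.1 and 35.7 CPM with anti-CD40. All 5 isotype mice lay above both anti-CD40 mice (log2 change -2.03 ± 0.52, adjusted p = 0.00995, edgeR). Its B2m-null values were 146, 102 and 38.6 CPM with isotype and 66.0, 120, 24.3 and 54.6 CPM with anti-CD40, which overlap (log2 change -0.45, adjusted p = 0.697, edgeR). Tnfrsf18 stood at 154, 212, 210, 260 and 187 CPM in the control isotype mice and at 127 and 107 CPM with anti-CD40, again without overlap (log2 change -0.81 ± 0.19, adjusted p = 0.00203, edgeR). In B2m-null tumours Tnfrsf18 measured 117, 130 and 176 CPM with isotype and 110, 115, 129 and 158 CPM with anti-CD40, which overlap (adjusted p = 0.991, edgeR).

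Cd27, the receptor of resting T cells, was not called in CD8 T-like cells of either genotype. In control tumours it measured 88.5, 89.1, 99.7, 102 and 109 CPM in the control isotype mice and 141 and 141 CPM in the control anti-CD40 mice. Both anti-CD40 mice lay above every isotype mouse, but the change of 0.53 did not pass (adjusted p = 0.110, edgeR). It was called in edgeR with no filter on low counts (0.63, 0.00246) and with T cells by cluster name (0.54, 0.0490). The replicate block over all 4 groups called it too (0.78, 0.00126). In B2m-null tumours it measured 58.4, 66.6 and 137 CPM with isotype and 63.5, 66.5, 136 and 119 CPM with anti-CD40, which overlap (0.42, adjusted p = 0.455, edgeR). Among all genes of CD8 T-like cells in control tumours 20.5% were called lower and 18.1% higher, so the 3 calls of receptors came from a class in which many genes moved.

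The Tnfrsf9 call held in each of the 11 alternative settings and each omission of a mouse or of a pool of another group. Its log2 changes there ran from -2.09 to -1.15. The control anti-CD40 pool is the only one of its group, so it could not be left out. Without control anti-CD40 mouse 2, which leaves 1 mouse in that group assumed to vary like the others, the Tnfrsf4 change was -1.73 (adjusted p = 0.157) and the Tnfrsf18 change -0.68 (0.0822). The Tnfrsf4 call was also lost without control isotype pool 1 (-2.10, 0.0523) and the Tnfrsf18 call with the lane as unit (-0.81, 0.0750).

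**Figure D2:**
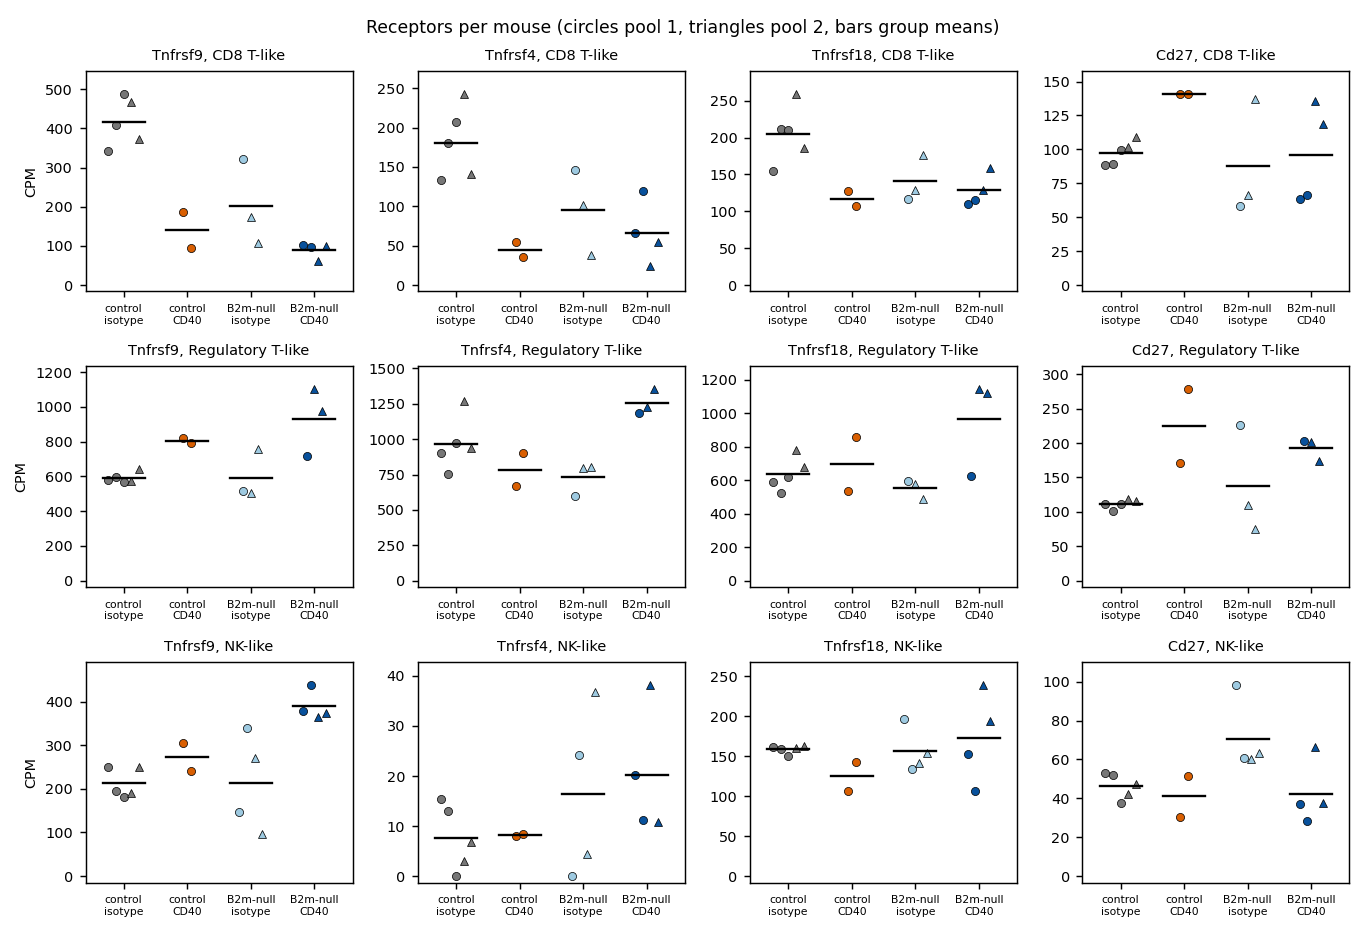
Level of the 4 receptors per mouse in CD8 T-like, Treg-like and NK-like cells, in CPM, by group, with the group mean as a line. In CD8 T-like cells of control tumours both anti-CD40 mice lie below every isotype mouse for Tnfrsf9, Tnfrsf4 and Tnfrsf18.

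Cell counts and depth differed between these groups. CD8 T-like cells had a median of 3309.5 UMIs in the control isotype group and 1486 in the control anti-CD40 group, against 2324 and 2213.5 in the B2m-null groups. Thinning to 1500 UMIs drops shallower cells. In control tumours it left 78.8% of CD8 T-like cells with isotype and 49.5% with anti-CD40, and 73.9% in both B2m-null groups. Among the cells left, the share with Tnfrsf9 was 39.0% with isotype and 12.8% with anti-CD40 in control tumours. In B2m-null tumours it was 19.6% and 7.80%. Such shares cover the deeper cells and not the whole class. Thinned monocyte-like cells gave 0.585%. Pooled over the cells of a group, thinned CD8 T-like cells with at least 1 of the 3 receptors were 57.4% and 23.7% in control tumours. They were 34.3% and 24.0% in B2m-null tumours. Those with all 3 were 4.23% and 0.853% in control tumours and 0.272% and 0.439% in B2m-null tumours. Before thinning, control anti-CD40 mouse 2 gave 5099 of the 6573 CD8 T-like cells of its group tied to a mouse. In the 2 technical lanes of the control anti-CD40 pool Tnfrsf9 stood at 121 and 111 CPM, and Tnfrsf18 at 112 CPM in each.

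The make-up of the CD8 T-like class moved with treatment. Cluster 8, led by Gzmf, Gzmb, Ifng and Rgs16, held 68.3% of the class in control isotype mice and 19.2% in control anti-CD40 mice. Cluster 6, led by Ccl5, Cd8b1 and Gzmk, held 6.25% and 32.4%. Cluster 4, led by Ccl5, Hcst and Tox and with a median of 870 UMIs, held 7.197% and 42.5%. Cluster 12, led by Tcf7, Satb1 and Ikzf2, held 18.0% and 4.17%, and its Tnfrsf9 averaged 25.3 CPM with isotype and 82.2 CPM with anti-CD40, without overlap but on 10 and 29 molecules. The summed level of 6 cycling genes, including Mki67 and Top2a, ranged over 1536 to 2121 CPM in control isotype mice and 546 to 959 CPM in control anti-CD40 mice. The part of this make-up in the receptor changes was not tested.

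Within cluster 8 alone, receptor levels were again lower with anti-CD40 in control tumours. Tnfrsf9 averaged 467 CPM with isotype (364 to 528) and 313 CPM with anti-CD40 (306 to 320). Tnfrsf4 averaged 202 CPM (143 to 256) and 90.9 CPM (82.4 to 99.3), and Tnfrsf18 212 CPM (155 to 268) and 148 CPM (146 to 150). For each of the 3 receptors the groups did not overlap within cluster 8, and the gap in Tnfrsf9 was smaller than over the whole class. In B2m-null tumours cluster 8 gave 239 CPM of Tnfrsf9 with isotype (166 to 328) and 129 CPM with anti-CD40 (100 to 187), which overlap. In cluster 6 of the control anti-CD40 mice Tnfrsf9 averaged 66.2 CPM, Tnfrsf4 24.2 CPM and Tnfrsf18 107 CPM. In cluster 4, their largest, these mice stood at 44.6 and 8.04 CPM of Tnfrsf9 and 11.1 and 6.34 CPM of Tnfrsf4. Tnfrsf18 stood there at 70.6 and 79.5 CPM. In the B2m-null anti-CD40 mice Tnfrsf9 averaged 52.8 CPM in cluster 6 against 129 CPM in cluster 8, while Tnfrsf18 averaged 143 and 122 CPM, with overlapping mice. Only 2 of the 5 control isotype mice had 20 cells in cluster 6, and the same was true of cluster 4, so no level is given for that group.

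**Figure D3:**
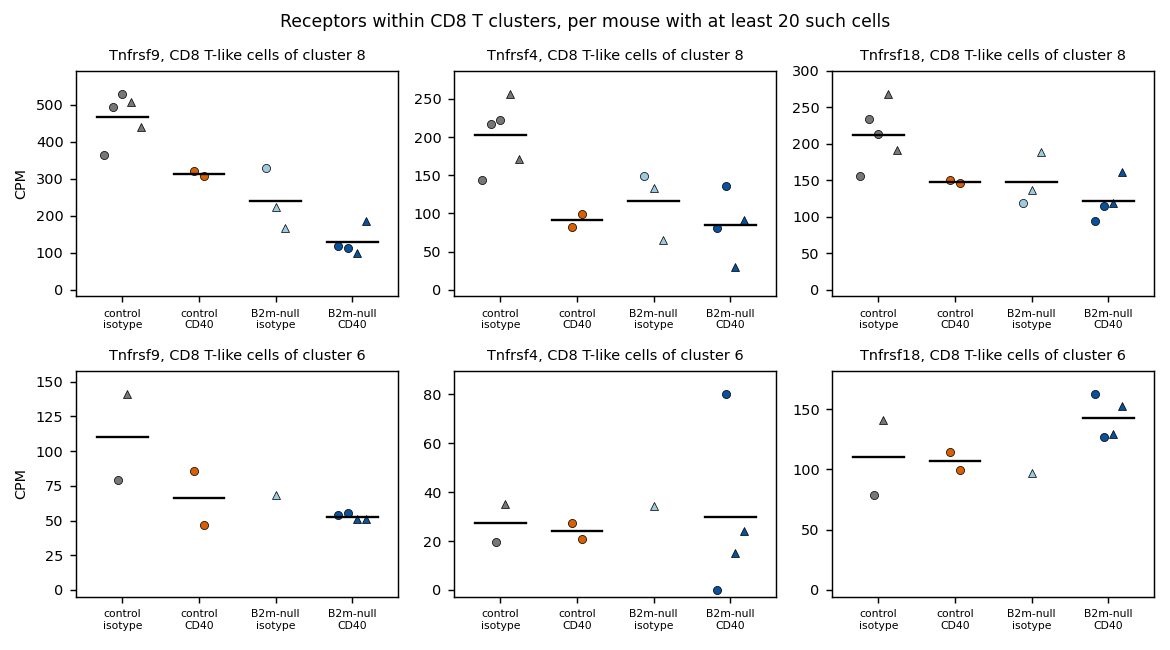
Level of the receptors per mouse in CD8 T-like clusters, in CPM, by group. Tnfrsf9 in cluster 8 stands at 364 to 528 CPM in control isotype mice and 306 to 320 CPM in control anti-CD40 mice.

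CD8 T-like cells also held RNA of the ligands, best known on antigen-presenting cells, and Tnfsf4 and Cd70 fell in the same comparison while Tnfsf9 was not called. Tnfsf9 measured 7.61, 6.68, 21.4, 9.89 and 4.86 CPM in the control isotype mice and 9.52 and 9.04 CPM in the control anti-CD40 mice, which overlap (log2 change -0.09, adjusted p = 0.897, edgeR). Tnfsf4 measured 20.5, 26.7, 40.4, 52.7 and 27.2 CPM in the control isotype mice and 11.9 and 5.80 CPM in the control anti-CD40 mice. The groups did not overlap (log2 change -2.04 ± 0.40, adjusted p = 0.000641, edgeR). Cd70 measured 3.81, 26.7, 16.6, 17.1 and 23.3 CPM with isotype and 2.38 and 2.28 CPM with anti-CD40 (log2 change -2.72 ± 0.55, adjusted p = 0.000735, edgeR), so both anti-CD40 mice were lower than every isotype mouse. Both calls held in every setting and omission tried. In B2m-null tumours Tnfsf4 measured 58.4, 10.9 and 21.5 CPM in the isotype mice, the highest on 6 molecules in 39 cells, and 7.33, 3.5, 3.15 and 5.63 CPM in the anti-CD40 mice. Cd70 measured 29.2, 10.9 and 12.9 CPM with isotype and 0, 2.33, 1.75 and 5.30 CPM with anti-CD40. Neither gene's groups overlapped there, but neither change passed (adjusted p = 0.0666 and 0.0793 in edgeR). The summed level of the 5 mature dendritic cell markers in the same CD8 T-like cells moved too, from 36.8 to 80.2 CPM over control isotype mice to 17.3 to 23.2 CPM over control anti-CD40 mice. The part of such RNA in the ligand changes was not tested.

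Treg-like cells went the other way in B2m-null tumours, where Tnfrsf18, Tnfrsf4 and Tnfrsf9 rose with anti-CD40, beside 2.27% of genes called higher in this set. Tnfrsf9 measured 515, 506 and 755 CPM in the B2m-null isotype mice and 717, 1102 and 975 CPM in the B2m-null anti-CD40 mice. These overlap by 1 mouse in each group (log2 change 0.68 ± 0.21, adjusted p = 0.0480, edgeR). Tnfrsf4 measured 597, 794 and 803 CPM with isotype and 1185, 1228 and 1354 CPM with anti-CD40, with no overlap (0.75 ± 0.20, adjusted p = 0.0246, edgeR). Tnfrsf18 measured 597, 575 and 487 CPM with isotype and 623, 1144 and 1121 CPM with anti-CD40, without overlap though 1 anti-CD40 mouse was near the isotype range (0.86 ± 0.22, adjusted p = 0.0155, edgeR). Cd27 was at 227, 111 and 75.0 CPM with isotype and 203, 202 and 175 CPM with anti-CD40, which overlap (adjusted p = 0.137, edgeR).

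In Treg-like cells of control tumours none of the 4 receptors passed in edgeR, beside 5.27% of all genes called in either direction. Tnfrsf9 measured 579, 594, 567.7, 575 and 644 CPM with isotype and 818 and 793 CPM with anti-CD40, so both anti-CD40 mice were higher, with an adjusted p of 0.340 in edgeR. Cd27 measured 112, 101, 111, 119 and 116 CPM with isotype and 171 and 279 CPM with anti-CD40, the nearest to a call (log2 change 1.01, adjusted p = 0.0561, edgeR). The Cd27 change was called in edgeR with RLE scaling (1.06, 0.0475) and without high Scrublet scores (1.05, 0.0495). T cells by cluster name also gave a call (0.84, 0.0149). Tnfrsf4 and Tnfrsf18 overlapped between these groups. The difference between the genotypes in the CD40 effect on Tnfrsf4 was 1.09 on the log2 scale and did not pass in edgeR (adjusted p = 0.0729). DESeq2 called this difference (1.09, adjusted p = 0.0198), and so did edgeR with T cells by cluster name (1.33, 0.00191).

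The Treg-like calls rested on few cells, 26 to 102 per B2m-null mouse. All 3 were lost with no filter on low counts, with the lane as unit and when cells were thinned to 1500 UMIs (adjusted p values for Tnfrsf9, Tnfrsf4 and Tnfrsf18 of 0.533, 0.342 and 0.0783). Without B2m-null anti-CD40 pool 2, which leaves 1 mouse assumed to vary like the others, the adjusted p values were 0.917, 0.711 and 0.963. Without mouse 1 of that pool they were 0.372, 0.0878 and 0.192, without its mouse 2 they were 0.137, 0.112 and 0.104, and without B2m-null isotype pool 2 they were 0.138, 0.0659 and 0.287. The Tnfrsf9 call held in 5 of the 13 omissions of a mouse, Tnfrsf4 in 11 and Tnfrsf18 in 10. Cycling genes ranged over 1934 to 2122 CPM in the B2m-null isotype mice and 168 to 1434 CPM with anti-CD40, and Foxp3 over 228 to 288 and 156 to 345 CPM. The part of cycling RNA in these changes was not tested. Both CD8 markers were at 0 in the class, which was defined without them.

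Thinned Treg-like cells with all 3 receptors made up 26.9% in the B2m-null isotype group and 45.6% in the B2m-null anti-CD40 group, and at full depth 45.1% and 52.4%. In the control groups they were 23.8% with isotype and 25.8% with anti-CD40 when thinned, the latter on 31 cells, and 43.0% and 22.4% at full depth. These shares pool the cells of a group and carry no test.

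In NK-like cells Tnfrsf9 rose with anti-CD40 in B2m-null tumours, where 6.22% of all genes were called higher. Tnfrsf9 measured 148, 340, 270 and 97.0 CPM in the B2m-null isotype mice and 379, 439, 364 and 375 CPM in the B2m-null anti-CD40 mice. Every anti-CD40 mouse lay above every isotype mouse, and the isotype mice spread widely (log2 change 1.00 ± 0.23, adjusted p = 0.00568, edgeR). In control tumours it measured 251, 195, 182, 190 and 249 CPM with isotype and 306 and 241 CPM with anti-CD40, which overlap (0.41, adjusted p = 0.358, edgeR). The difference between the genotypes, 0.59, did not pass (adjusted p = 0.407, edgeR). The 2 technical lanes of the control anti-CD40 pool gave 217 and 340 CPM of Tnfrsf9 in NK-like cells.

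Tnfrsf18, Tnfrsf4 and Cd27 were not called in NK-like cells. Tnfrsf18, steady at 150 to 163 CPM in the control isotype mice, ranged over 134 to 197 CPM in the B2m-null isotype mice and 107 to 240 CPM in the B2m-null anti-CD40 mice (adjusted p = 0.139, edgeR). Markers of T cells moved with the Tnfrsf9 result. The summed level of 4 T cell markers in NK-like cells ranged over 255 to 335 CPM in B2m-null isotype mice and 646 to 1411 CPM with anti-CD40, and the 2 CD8 markers over 0 to 48.6 and 129 to 312 CPM. The 6 NK markers also ranged higher, from 3940 to 6072 CPM to 9972 to 14128 CPM. The part of T cell RNA in this result was not tested. The call was lost with cells gated on markers (1.13, adjusted p = 0.0692), at most 5% mitochondrial counts (0.63, 0.0630), without B2m-null anti-CD40 pool 2 (1.02, 0.0717) and without B2m-null isotype pool 2 (0.75, 0.0888), all in edgeR.

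Conventional CD4 T-like cells could be tested for CD40 only in control tumours, because only 1 B2m-null isotype mouse had 20 such cells. Tnfrsf4 measured 626, 76.9 and 138 CPM in the control isotype mice and 174 and 309 CPM in the control anti-CD40 mice, so the 2 groups overlapped. It stood at 256 CPM in the B2m-null isotype mouse and at 452, 375 and 502 CPM with anti-CD40. None of the 4 receptors passed in edgeR in this comparison or between genotypes under anti-CD40, and none had an unadjusted p under 0.05 (lowest adjusted p = 0.594, Tnfrsf4 between genotypes). The Tnfrsf4 values of the 2 anti-CD40 groups did not overlap. Between genotypes under anti-CD40, edgeR called Tnfrsf4 with at least 50 cells per mouse (0.86, adjusted p = 0.00590). With at most 5% mitochondrial counts it called Tnfrsf4 (1.04, 0.0499) and Tnfrsf18 (0.63, 0.0337). Of all genes in this class only 0.778% and 0.389% were called in these comparisons, so 0 of 4 says nothing particular to the receptors.

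Among ligands, Tnfsf4 fell with anti-CD40 in the dendritic cells of B2m-null tumours, taken as cDC1-like, cDC2-like and mature dendritic-like cells together, where 5.26% of genes were called lower. It measured 11.9, 16.7, 3.34, 14.6 and 10.6 CPM in the B2m-null isotype mice and 3.16, 0, 0 and 3.29 CPM in the B2m-null anti-CD40 mice. All 4 anti-CD40 mice lay below all 5 isotype mice, the highest anti-CD40 mouse only just (log2 change -2.80 ± 0.64, adjusted p = 0.00599, edgeR). The counts are small, with 3 molecules in the 289 anti-CD40 cells and 152 in the 1937 isotype cells tied to a mouse. With the cells not tied to a mouse added, 4 molecules in 399 cells stood against 196 in 3330, a ratio of 0.149 per UMI (95% exact interval 0.0402 to 0.388, counting error only). In control tumours it measured 12.3, 7.78, 8.89, 11.1 and 9.60 CPM with isotype and 9.43 and 4.21 CPM with anti-CD40, which overlap (adjusted p = 0.558, edgeR).

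The share of mature dendritic-like cells, the main source of Tnfsf4, averaged 35.9% of these dendritic cells with isotype and 31.8% with anti-CD40 in B2m-null tumours, with a range of 10.3 to 51.6% over the anti-CD40 mice. Within mature dendritic-like cells, 3 molecules in 117 anti-CD40 cells stood against 155 in 1085 isotype cells, 5.78 against 30.4 CPM (ratio 0.190, 0.0387 to 0.565). The call was lost without B2m-null anti-CD40 pool 2 (log2 change -2.47, adjusted p = 0.260) or without its mouse 1 (-2.04, 0.0786), in edgeR. Nor was it made with cells gated on markers, a setting that called no ligand or receptor for CD40 in B2m-null tumours.

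Tnfsf9 and Cd70 were not called in dendritic cells. Tnfsf9 measured 41.2, 54.1, 44.4, 45.8 and 51.9 CPM in the control isotype mice and 31.4 and 25.2 CPM in the control anti-CD40 mice. Both anti-CD40 mice were lower than every isotype mouse, but the change of -0.76 did not pass (adjusted p = 0.156, edgeR). In B2m-null tumours it measured 61.6, 52.5, 56.9, 38.4 and 39.0 CPM with isotype and 79.1, 67.5, 39.9 and 39.5 CPM with anti-CD40, which overlap (adjusted p = 0.563, edgeR). Mature dendritic-like cells made up 35.4% of control isotype dendritic cells and 17.5% of control anti-CD40 ones.

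Pooled over cells within the mature dendritic-like class, Tnfsf9 was 71.4 CPM in the control isotype group and 12.9 CPM, 3 molecules in 50 cells, in the control anti-CD40 group (ratio 0.180, interval 0.0370 to 0.531). In the B2m-null groups it was 65.8 and 108 CPM (1.64, 1.21 to 2.18), whereas in cDC2-like cells of those groups it was 51.5 and 36.6 CPM (0.710, 0.498 to 0.989). Cd70, whose receptor is Cd27, was 26.1 and 46.2 CPM in the B2m-null groups (1.77, 1.09 to 2.75) and 37.1 and 21.4 CPM in the control groups (0.578, 0.185 to 1.38). These intervals cover counting error and not the spread between mice. At most 1 mouse per anti-CD40 group had 20 mature dendritic-like cells, so only the genotypes under isotype could be tested in this class, and no member passed there in edgeR, beside 0.214% of all genes.

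**Figure D4:**
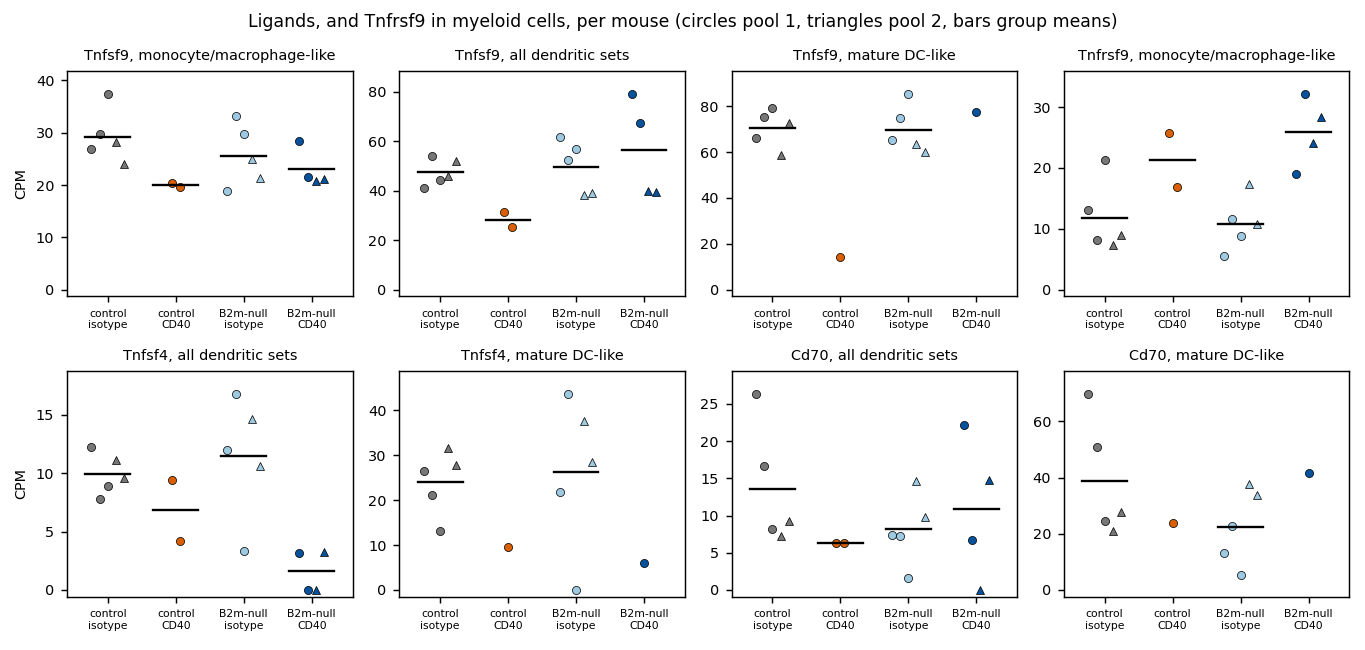
Level of the 3 ligands per mouse in dendritic and in mature dendritic cell-like cells, in CPM, by group, with the group mean as a line. For monocyte and macrophage-like cells the ligand Tnfsf9 and the receptor Tnfrsf9 are shown. Tnfsf4 in dendritic cells is at 3.34 to 16.7 CPM in B2m-null isotype mice and 0 to 3.29 CPM in B2m-null anti-CD40 mice.

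In monocyte and macrophage-like cells, Tnfsf9 was the ligand with enough counts to test. It measured 26.9, 29.8, 37.4, 28.1 and 24.0 CPM in the control isotype mice and 20.4 and 19.5 CPM in the control anti-CD40 mice. Both anti-CD40 mice were lower than every isotype mouse, and the change of -0.44 did not pass (adjusted p = 0.0901, edgeR). With cells thinned to 1500 UMIs (-0.64, adjusted p = 0.00937) and with at most 5% mitochondrial counts (-0.60, 0.0311) edgeR called it. The difference between genotypes in this change was called when thinned (0.80, 0.0174) and with marker gates (0.67, 0.0258). So was the lower level in B2m-null isotype mice (-0.47, 0.0363, and -0.41, 0.0358, in edgeR). In B2m-null tumours it ranged over 18.9 to 33.2 CPM with isotype and 20.7 to 28.5 CPM with anti-CD40 (adjusted p = 0.664, edgeR). Tnfsf4 reached at most 0.691 CPM in these mice and Cd70 0.301 CPM. No ligand passed the filter on low counts in B-like cells.

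Receptor RNA outside lymphocytes also moved. In monocyte and macrophage-like cells Tnfrsf9 measured 5.61, 11.7, 8.76, 17.4 and 10.8 CPM in the B2m-null isotype mice and 19.0, 32.1, 24.0 and 28.3 CPM in the B2m-null anti-CD40 mice. The groups did not overlap (log2 change 1.39 ± 0.34, adjusted p = 0.00544, edgeR), in a set where 18.3% of genes were called higher. In control tumours it measured 13.1, 8.13, 21.3, 7.38 and 8.97 CPM with isotype and 25.8 and 16.8 CPM with anti-CD40, which overlap (adjusted p = 0.107, edgeR). The B2m-null call held in each of 11 settings and without each of 16 mice, and was lost without B2m-null isotype pool 1 (1.09, adjusted p = 0.0744).

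This Tnfrsf9 RNA was densest in cluster 2, macrophage-like cells led by Mmp12. There it averaged 36.2 ± 22.2 CPM (SD) in B2m-null isotype mice and 85.7 ± 30.5 CPM in B2m-null anti-CD40 mice, and 41.9 and 96.7 CPM in the control groups. In cluster 2 the T cell genes Cd3e and Trac averaged 2.24 and 4.0 CPM in the B2m-null isotype mice and 2.199 and 3.83 CPM in the B2m-null anti-CD40 mice, while Cd8a averaged 0.418 and 2.98 CPM. Over the whole set the 4 T cell markers ranged over 8.82 to 25.7 and 19.9 to 33.2 CPM. Their part in the result was not tested.

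In dendritic cells of control tumours Tnfrsf9 fell with anti-CD40, in a set where 0.842% of genes were called lower. It measured 92.8, 94.7, 106, 79.8 and 76.2 CPM with isotype and 28.3 and 33.7 CPM with anti-CD40, far apart (log2 change -1.41 ± 0.28, adjusted p = 0.00355, edgeR). The 4 T cell markers in these cells ranged over 264 to 531 CPM with isotype and 613 to 830 CPM with anti-CD40, and the mature dendritic markers over 1372 to 1728 and 503 to 895 CPM. The part of either in the change was not tested. The Tnfrsf9 call was lost with cells gated on markers (-0.54, adjusted p = 0.516, edgeR) and without control anti-CD40 mouse 2, which leaves a single mouse in that group. In the same cells Tnfrsf4 stood at 130, 99.0, 94.0, 89.3 and 77.3 CPM with isotype and 25.1 and 54.7 CPM with anti-CD40. Tnfrsf18 stood at 111, 95.8, 86.3, 72.5 and 85.3 CPM and at 47.1 and 54.7 CPM. Neither gene's groups overlapped, whereas those of Cd27 did.

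**Figure D5:**
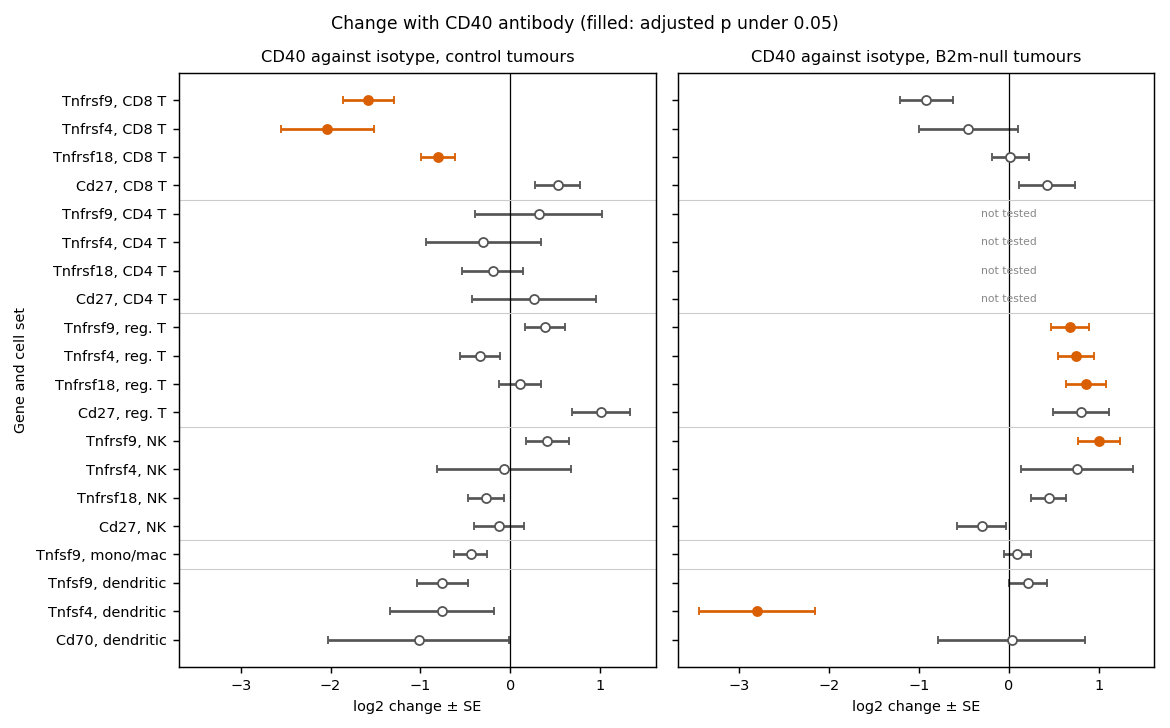
Log2 change with anti-CD40 against isotype for each member and cell set, with its standard error, in control and in B2m-null tumours. Tnfrsf9 is at -1.58 in CD8 T-like cells of control tumours and at 1.00 in NK-like cells of B2m-null tumours.

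Comparing tumour genotypes, 0 of 19 tests passed under isotype in edgeR, beside 2.88% of all gene tests, with 4 at an unadjusted p under 0.05 and 1 called by DESeq2. The nearest was Tnfrsf9 in CD8 T-like cells, 343 to 489 CPM in the control isotype mice and 107 to 321 CPM in the B2m-null isotype mice. These groups do not overlap (log2 change -1.26 ± 0.28, adjusted p = 0.106 in edgeR). This was the test that DESeq2 called (-1.21, adjusted p = 0.00248). In edgeR it was called with no filter on low counts (-1.27, 3.55e-09) and with the replicate block (-1.20, 0.0304). Gating on markers (-1.34, 0.0192) and thinning to 1500 UMIs (-1.42, 0.04997) also called it in edgeR. Under anti-CD40, 0 of 20 passed beside 6.12% of all gene tests, with 6 at an unadjusted p under 0.05 and 0 called by DESeq2. The nearest was Tnfrsf18 in NK-like cells, at 106 and 143 CPM in control and 152, 107, 240 and 194 CPM in B2m-null mice, which overlap (log2 change 0.58, adjusted p = 0.0916, edgeR).

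Whether the CD40 effect differed between the genotypes was tested directly, and 0 of 16 tests passed in edgeR beside 9.2% of all gene tests, with 6 at an unadjusted p under 0.05 and 1 called by DESeq2. The nearest was Tnfrsf18 in CD8 T-like cells, which changed by -0.81 in control and 0.01 in B2m-null tumours (difference 0.82 ± 0.28, adjusted p = 0.0655, edgeR). In edgeR it was called with no filter on low counts (0.78, 0.0466) and with T cells by cluster name (0.82, 0.0449). The Tnfrsf4 difference in these cells was called in the same 2 settings (1.53, 1.08e-05, and 2.15, 0.00159, in edgeR). The DESeq2 call was Tnfrsf4 in Treg-like cells. As 0 of 16 passed in the main fit, a call in a single genotype above is not shown to be specific to it.

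A list of 32 other genes of the superfamily and of its NF-kB signalling gives the surroundings of the members. Where its share of calls is near that over all genes, the count says nothing particular to the list. In monocyte and macrophage-like cells of B2m-null tumours 12 of 31 tested genes rose and 4 fell with anti-CD40, beside 18.3% of all genes higher and 19.1% lower, with a median log2 change of 0.35 against -0.02 over all genes. Those named by the rule were Tnfsf15, a TNF-family ligand of Tnfrsf25, at 2.60, Tnfsf18, the GITR ligand, at -1.90, the adaptor Traf1 at 1.37 and Cd40 at 1.23, with adjusted p values of 0.00195, 0.00686, 0.00201 and 0.00134 in edgeR. In control tumours 11.6% of all genes were called higher and 11.2% lower. There 1 of the 31 rose, the TNF receptor Tnfrsf1b (0.63, adjusted p = 0.00336), and 2 fell, the NF-kB subunit Rel (-0.74, 0.0472) and the kinase Map3k14, also called NIK (-0.50, 0.0311). Tnfsf15, Traf1, Cd40 and Tnfrsf1b kept their calls in each setting and without any mouse or any pool that could be left out. Tnfsf18 lost its call without B2m-null anti-CD40 pool 2 (-1.34, adjusted p = 0.159) or B2m-null isotype pool 2 (-1.47, 0.121), and Rel was called in 4 of 16 omissions of a mouse.

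In CD8 T-like cells of control tumours 5 of 27 tested genes rose and 3 fell, beside 18.1% of all genes higher and 20.5% lower, with a median of 0.23 against -0.03 over all genes. Tnfrsf25, a death-domain receptor that costimulates T cells, changed by 2.18, the NF-kB inhibitor Tnfaip3 by 1.10, Map3k14 by 1.00 and the survival gene Bcl2a1d by -0.89, with adjusted p values of 0.00200, 8.32e-06, 0.00410 and 0.00172 in edgeR. The calls of Tnfrsf25 and Tnfaip3 held in each setting and without any mouse or any pool that could be left out. Those of Map3k14 and Bcl2a1d were lost without control anti-CD40 mouse 2, which leaves a single mouse in that group. In B2m-null tumours 2 of the 27 rose and 3 fell, beside 3.71% and 2.52% of all genes. They include Tnfrsf25 (3.03, adjusted p = 0.0406), Tnfsf8, the CD30 ligand (-1.63, 0.0294), Rel (-0.77, 0.0336) and Tnfaip3 (0.75, 0.00628), all in edgeR. Of 14 omissions of a mouse, Tnfrsf25 was called in 11, Tnfsf8 in 10, Rel in 9 and Tnfaip3 in 14, and Tnfaip3 was lost without B2m-null isotype pool 2 (0.358) and when cells were thinned (0.160). With T cells taken by cluster name the Tnfaip3 change turned its sign (-0.079, adjusted p = 0.907).

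Few genes of the list were called in NK-like and Treg-like cells. In NK-like cells Bcl2, a survival gene, fell by 1.78 on the log2 scale in control tumours (adjusted p = 0.000156, edgeR), the only 1 of 21 genes called there, beside 2.52% of all genes called lower. It held in each setting and without any mouse or any pool that could be left out. In B2m-null tumours Bcl2 fell by 1.08 (0.00553) while Bcl2a1b, a member of the same family, rose by 1.36 (2.53e-05) and the inhibitor Nfkbia by 0.60 (0.0287), beside 3.59% of all genes lower and 6.22% higher. With NK-like cells gated on markers these 3 were lost, at -0.61, 0.48 and 0.09. Treg-like cells gave 2 of 19 higher in control tumours, Birc2 (0.93, 0.0394) and Tnfaip3 (0.78, 0.0424), both lost without either control anti-CD40 mouse, and 1 of 19 lower in B2m-null tumours, Rel (-1.41, 0.0330), called in 8 of 13 omissions of a mouse. Of all genes in Treg-like cells 2.04% were called higher in the first comparison and 2.06% lower in the second.

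In dendritic cells of B2m-null tumours 2 of 25 rose and 3 fell, beside 6.32% and 5.26% of all genes. The receptor Cd40 rose (1.25, adjusted p = 0.0223, edgeR), and Map3k14 (-0.87, 0.00159), the adaptor Traf6 (-0.86, 0.0239) and Rel (-0.79, 0.00132) fell. Map3k14 held without any mouse or pool, Rel was lost without B2m-null anti-CD40 pool 2 (0.140), and Cd40 was called in 14 and Traf6 in 15 of 16 omissions of a mouse. In control tumours 0 of 25 were called by edgeR in dendritic cells, beside 2.4% of all genes called higher and 0.842% lower.

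Between genotypes, 6 of 31 genes of the list were lower in monocyte and macrophage-like cells of B2m-null isotype mice than of control isotype mice, beside 5.61% of all genes. The 4 largest were Tnfsf15 (-2.16), Bcl2a1d (-0.97), the cytokine Tnf (-0.92) and the inhibitor Nfkbie (-0.86), with adjusted p values of 0.0237, 0.0223, 0.0105 and 0.0238 in edgeR. Under anti-CD40, Traf1 was higher in B2m-null tumours in this set (1.31, adjusted p = 0.0374), 1 of 31 beside 5.25% of all genes. In CD8 T-like cells 4 of 27 were lower in B2m-null tumours under anti-CD40, Bcl2l1 (-0.69), Rel (-0.68), Tnfaip3 (-0.58) and Tnfrsf1b (-0.54), with adjusted p values of 0.0213, 0.0197, 0.0174 and 0.0363, beside 4.43% of all genes. In NK-like cells under anti-CD40, Bcl2l1 was lower (-1.39, 0.0356) and Bcl2a1b higher (1.00, 0.00529), each 1 of 21, beside 1.91% and 2.76% of all genes. Each of these 11 genotype calls was lost on omission of at least 1 mouse or pool. Bcl2a1b and Bcl2a1d are near-identical copies, so the counting may have split their reads.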

How the data were processed

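Single-cell 3′ RNA libraries with hashtag antibodies were made from 8 lanes of CD45-enriched tumour cells. The deposited matrices hold raw UMI counts per gene and barcode, which the authors made with Cell Ranger 3.0.0 and bcl2fastq 2.20.0.422 on mm10, per the submitters' processing notes. The annotation release and use of strand are not named there. Mice were read from the hashtag counts (2 hashtags in 6 lanes, 3 in 2 lanes), and 20 counts, 2.5 SD above background and a posterior of 0.9 were asked of a call. Barcodes with fewer than 200 genes, or more than 10% of UMIs from mitochondrial genes, were dropped.

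Cells were clustered with scanpy 1.11.5 (2000 variable genes, 40 components, 20 neighbours, Leiden resolution 1) into 27 clusters, named from marker genes. 1 cluster with T cell and macrophage RNA was left unnamed. Regulatory T-like cells were those of the cluster named regulatory that held no CD8 RNA, and Foxp3 was not asked of each cell. In the other T clusters, cells were split into CD8 and CD4 by their markers, and those with Foxp3 were left unplaced. Counts were summed per mouse and class, and mice with under 20 cells of a class were left out of it. edgeR 4.0.16 (TMM scaling, filterByExpr, robust quasi-likelihood test) fitted the 4 groups together per class, with Benjamini-Hochberg adjustment over all genes of the class. A call is an adjusted p under 0.05, and SE is the log2 change divided by the root of its F. Receptors were counted in CD8 T, CD4 T, regulatory T and NK sets, and ligands in monocyte and macrophage, dendritic, mature dendritic and B sets. Every member is described with the 3 genes most like it, and of the 32 other genes the 4 with the largest called change per set and comparison are named. The scripts were tested on simulated data. Alternatives were RLE scaling, no filter, DESeq2 1.42.0, the lane as unit and a replicate block (also over all 4 groups, added later). Others were gating on markers, removal of the top 5% Scrublet scores, 50 cells per mouse, 5% mitochondrial counts and thinning to 1500 UMIs. Thinning dropped cells with fewer than 1500 UMIs. T cells by cluster name were a further alternative. Each mouse was also left out, and each pool except the single control anti-CD40 pool. With the lane as unit, cells with no hashtag call were included, and the technical lanes of control anti-CD40 were joined into a single unit.

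The members and lists were chosen with earlier results of these data known. UMI totals of 46.0 to 99.3 M per lane set the precision. Intervals are exact at 95% and, like the floor of 3 counts, cover counting error only.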

Additional observations from a re-analysis of the deposited data

Results flagged for a closer look

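Of 48 groups of 4 or 5 mice examined for a mouse that stands apart, 3 had one, where chance gives about 1 in 20. Cd27 in NK-like cells was 98.5 CPM in B2m-null isotype pool 1 mouse 1, on 32 cells, against 60.3 to 63.5 CPM in the others of the group. Tnfrsf9 in CD8 T-like cells was 61.7 CPM in B2m-null anti-CD40 pool 2 mouse 1, on 1944 cells, against 97.4 to 103 CPM. Tnfsf9 in monocyte and macrophage-like cells was 28.5 CPM in B2m-null anti-CD40 pool 1 mouse 1, on 1703 cells, against 20.7 to 21.6 CPM.

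The change with anti-CD40 differed between the tumour genotypes by edgeR's test of the difference, B2m-null minus control on the log2 scale, on the list of 32 other genes, in shares that lie partly at or below those of all genes. In CD8 T-like cells they were Bcl2a1b (0.99), Bcl2l1 (-1.10), Cflar (-0.87) and Nfkb1 (-0.84), with adjusted p values of 0.0121, 0.0313, 0.0278 and 0.0180, so 1 of 27 genes was called above and 3 below 0 beside 5.5% and 3.15% of all genes. In monocyte and macrophage-like cells 5 of 31 genes differed, all above 0, beside 9.95% of all genes called above 0 and 9.86% below, the 4 largest being Traf1 (2.12), Nfkbie (1.54), Bcl2a1d (1.17) and Nfkbia (0.94), with adjusted p values of 0.00725, 0.00844, 0.0492 and 0.0232. Bcl2a1b differed in NK-like cells (1.44, adjusted p = 0.00536) and in dendritic cells (1.46, 0.0314), where Bcl2 also differed (-0.99, 0.0385). With the replicate block over all 4 groups Bcl2a1d in monocyte and macrophage-like cells (1.22, adjusted p = 0.0545) and Bcl2a1b and Bcl2 in dendritic cells (1.49, 0.0526, and -0.92, 0.0693) were no longer called, all in edgeR. Of all genes 1.4% were called above 0 and 0.765% below in NK-like cells, and 2.6% above and 2.34% below in dendritic cells.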

How the results depend on the processing

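The number of ligand and receptor tests called moved with the settings, partly because fewer tests could be made. For CD40 in control tumours (3 called), no filter on low counts gave 5, T cells by cluster name, chosen after seeing the data, gave 5, and the other settings 2 to 4, apart from a block given further on. For CD40 in B2m-null tumours (5 called), no filter gave 3, the lane as unit 2, gating on markers 0 of 12, at least 50 cells per mouse 2 of 12 and thinning to 1500 UMIs 1 of 13, and the other settings gave 4 to 6. Between genotypes under isotype (0 called), no filter gave 2, DESeq2 1, gating on markers 2 and thinning 2. Between genotypes under anti-CD40 (0 called), no filter gave 1, at least 50 cells 1, at most 5% mitochondrial counts 3 and T cells by cluster name 2. For the difference of the CD40 effects (0 called), no filter gave 2, DESeq2 1, gating on markers 1, thinning 1 and T cells by cluster name 3.

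With a mouse or pool left out, the numbers ran from 1 to 5 for CD40 in control tumours, 0 to 7 for CD40 in B2m-null tumours, 0 to 1 between genotypes under isotype, 0 to 2 under anti-CD40 and 0 to 2 for the difference. The lowest for CD40, 1 and 0, came without control anti-CD40 mouse 2 and without B2m-null anti-CD40 pool 2. A single change turned its sign: Tnfaip3 in CD8 T-like cells of B2m-null tumours was 0.75, and -0.079 with T cells by cluster name. The cause was not tested.

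The labels do not tie equal pool numbers together. The pool 1 minus pool 2 differences of the B2m-null isotype and B2m-null anti-CD40 groups correlated over genes by 0.20 to 0.31 in all 4 cell sets checked, and those of control isotype with the B2m-null groups by -0.19 to 0.32. With 2 numbers per group this is a hint from the data, not the design. With the replicate block on the pool number, 6 of 15 tests were called for CD40 in B2m-null tumours and 1 of 18 between genotypes under isotype. The test gained in each comparison was Tnfrsf9 in CD8 T-like cells (-0.95, adjusted p = 0.0149, and -1.20, 0.0304, in edgeR). This fit leaves out control anti-CD40 tumours, a single pool. A replicate block over all 4 groups, added after seeing the data, called 5 for CD40 in control tumours, with Cd27 in CD8 T-like cells (0.78, adjusted p = 0.00126) and Tnfsf9 in monocyte and macrophage-like cells (-0.52, 0.0434) beside the 3, and 5 for CD40 in B2m-null tumours. It called 0 between genotypes under isotype, 1 under anti-CD40 (Cd27 in CD8 T-like cells, -0.77, 0.0111) and 1 for the difference (Tnfrsf18 in CD8 T-like cells, 0.76, 0.0279), all in edgeR.

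Depth limits the shares of cells: of 86 shares of cells with a UMI, 34 moved by less than 1 SD between mice on thinning and 52 by more. Scaling by RLE or DESeq2 changed no direction of a called member.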
